A study of Mus musculus with 21 samples.

Results

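The effect of the histone deacetylase inhibitor quisinostat, named JNJ in the sample labels, was compared between an early and a late time of exposure in SMB21 cells, which grow from a mouse medulloblastoma of the sonic hedgehog (SHH) type. The quantity described is a difference of differences: the log2 change from DMSO to JNJ at 24 h minus the log2 change from DMSO to JNJ at 2 h. The contrast uses 12 of the 21 samples of the series, 3 libraries in each of 4 groups: DMSO for 2 h, JNJ for 2 h, DMSO for 24 h and JNJ for 24 h. All 12 came from the same line, grown in DMEM/F12 with B-27, with no genetic change labelled, so every group shares that line's genotype. The labels do not give it; SMB lines are known from tumours of mice with a mutant Ptch1, the gene of the hedgehog receptor that holds the pathway off. Each drug group has a vehicle group of its own time. No dose is given in the sources used here, a single line was used, and separate cultures are not named for the 3 libraries of a group. The p-values therefore rest on a spread between libraries that may be technical. The other 9 samples, cells transduced with short hairpins, were not part of the contrast.

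Histone deacetylases remove acetyl groups from lysines of histones and of other proteins, and sit in co-repressor complexes that keep genes silent. An inhibitor lets acetylation build up within hours, which changes transcription of some genes directly. Changes that need new proteins, division or loss of a cell state can only follow later. SHH medulloblastoma arises from granule neuron precursors of the cerebellum, which divide under sonic hedgehog and leave the cell cycle when they become granule neurons. A gene can therefore respond to the drug at both times alike, only late, only early, or in opposite directions, and the difference between the times separates these patterns.

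The 12 libraries held between 23461048 and 39341784 counts. Values are given as CPM, counts scaled to the TMM-adjusted library total, with 3 counts worth 0.0776 to 0.118 CPM depending on the library. CPM values are not corrected for transcript length. The granule-lineage markers of the line were read in every library, with a summed level of 1287 to 1370 CPM with DMSO at 2 h, 662 to 1006 with JNJ at 2 h, 1266 to 1443 with DMSO at 24 h and 718 to 877 with JNJ at 24 h. Libraries of 1 group were not equally close: the SD of the log2 ratio between 2 libraries of JNJ at 2 h reached 0.74 (replicates 1 and 3), against 0.36 to 0.60 in the other groups. Oligodendrocyte, microglial and blood markers stayed below 6 CPM in sum in all 12 libraries. In bulk RNA, fewer cells of a type and less RNA per cell cannot be told apart. The vehicle groups served as the check on time alone: with edgeR's quasi-likelihood test, 0 of 14467 genes (0%) were called between DMSO at 24 h and DMSO at 2 h, although 1417 had an unadjusted p under 0.05. DESeq2 called 16, limma-voom 2, the fit without a filter on low counts 2 and the fit with the replicate number as a block across both times 108.

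Several patterns recur in the results, and the promoters of 1 gene each are shown for orientation, 250 bases up to the transcription start, from RefSeq on GRCm38.p6, a later build than the mm9 assembly behind the counts. Per1 (chr11:69098699-69098948, plus strand, the first of 2 promoters listed) was called higher at 2 h and, without a block of replicate pairs, not at 24 h. Orc1 (chr4:108579204-108579453, plus strand) was called lower only at 24 h. Unc13b (chr4:43058703-43058952, plus strand) was called higher only at 24 h. Gltpd1, listed in RefSeq as Cptp (chr4:155869441-155869690, minus strand), was called higher at 2 h and lower at 24 h. All 4 are written 5′ to 3′ on the strand of the gene. Capitals mark every match, on either strand, to the E2F motif TTTCCCGC or TTTGGCGC, the NF-Y motif CCAAT, which is ATTGG on the other strand, the cyclic AMP response element TGACGTCA, the E-box CACGTG and the GC box GGGCGG, which is CCGCCC on the other strand.
Per1: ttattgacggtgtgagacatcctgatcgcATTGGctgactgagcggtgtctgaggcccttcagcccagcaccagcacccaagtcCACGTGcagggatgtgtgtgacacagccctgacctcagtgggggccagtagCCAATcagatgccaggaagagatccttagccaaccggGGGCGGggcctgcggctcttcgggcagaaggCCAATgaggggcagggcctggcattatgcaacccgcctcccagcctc
Orc1: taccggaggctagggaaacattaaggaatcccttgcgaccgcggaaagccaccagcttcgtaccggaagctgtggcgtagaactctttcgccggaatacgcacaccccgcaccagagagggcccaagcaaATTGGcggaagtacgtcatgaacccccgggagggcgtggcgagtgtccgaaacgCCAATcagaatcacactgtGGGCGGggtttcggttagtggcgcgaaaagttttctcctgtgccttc
Unc13b: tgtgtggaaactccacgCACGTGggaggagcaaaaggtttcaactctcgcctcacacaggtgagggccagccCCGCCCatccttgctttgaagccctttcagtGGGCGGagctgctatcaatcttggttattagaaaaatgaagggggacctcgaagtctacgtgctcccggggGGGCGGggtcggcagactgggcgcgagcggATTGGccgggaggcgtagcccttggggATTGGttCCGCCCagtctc
Gltpd1: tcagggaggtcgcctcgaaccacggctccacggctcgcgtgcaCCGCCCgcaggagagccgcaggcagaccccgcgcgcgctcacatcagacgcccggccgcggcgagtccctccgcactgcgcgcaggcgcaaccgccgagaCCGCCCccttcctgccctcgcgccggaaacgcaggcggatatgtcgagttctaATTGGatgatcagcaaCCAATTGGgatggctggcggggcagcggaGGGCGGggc
Per1, Unc13b and Gltpd1 hold NF-Y and GC box matches, as does Orc1, and the E-box is matched in Per1 and Unc13b among the 4. Of the 32851 mouse promoters in the table, 33.8% hold the NF-Y letters, 32.7% the GC box, 6.02% the E-box, 1.55% the cyclic AMP response element and 1.3% either E2F motif, so NF-Y and GC box matches are common in any gene. In the Gltpd1 promoter CCAAT matches on opposite strands overlap in the run CCAATTGG. Only the E2F spellings given above were searched, so a promoter without an E2F mark, such as that of Orc1, may hold another form. A share of motifs by response pattern is void, because 78.7% of the tested genes matched the promoter table by symbol.

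The drug effect differed between 24 h and 2 h at 614 of 14467 genes (4.24%; edgeR quasi-likelihood test, adjusted p below 0.05), higher at 363 (2.51%) and lower at 251 (1.73%). At 2 h alone JNJ raised 1318 genes (9.11%) and lowered 664 (4.59%). At 24 h it raised 2613 (18.1%) and lowered 2178 (15.1%). Most genes that moved at 2 h had no called difference: 1230 of the 1318 raised genes and 641 of the 664 lowered genes. Of the genes raised at 2 h, 675 (51.2%) were also called higher at 24 h, 632 (48.0%) were not called and 11 (0.835%) were called lower, and of those lowered at 2 h, 458 (69.0%) were also lower at 24 h. In the other direction, 675 of the 2613 genes raised at 24 h (25.8%) and 458 of the 2178 lowered (21.0%) had been called at 2 h. The median log2 difference over all tested genes was -0.05, from medians of 0.03 at 2 h and 0.01 at 24 h. Across genes, which are not independent replicates, the log2 effects at 2 h and 24 h had a Pearson r of 0.52 and a Spearman rho of 0.52, and 69.5% of genes had the same sign.

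Genes were grouped by their 3 calls (2 h, 24 h and the difference). A late rise, called higher at 24 h and in the difference but not at 2 h, was found at 327 genes, and a late fall at 173. Larger at 24 h in the same direction were 20 rises and 7 falls. Early responses that had shrunk below the call at 24 h were 55 transient rises and 12 transient falls, and another 2 rises and 2 falls had shrunk but were still called. Opposite calls at 2 h and 24 h were found at 13 genes, 11 higher and then lower, and 2 lower and then higher. The remaining 3 genes had a called difference with neither time called. The late rises had a median log2 effect of 0.00 at 2 h and 2.60 at 24 h, the late falls of 0.05 and -1.28, and the transient rises of 1.14 and -0.13.

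**Figure D1:**
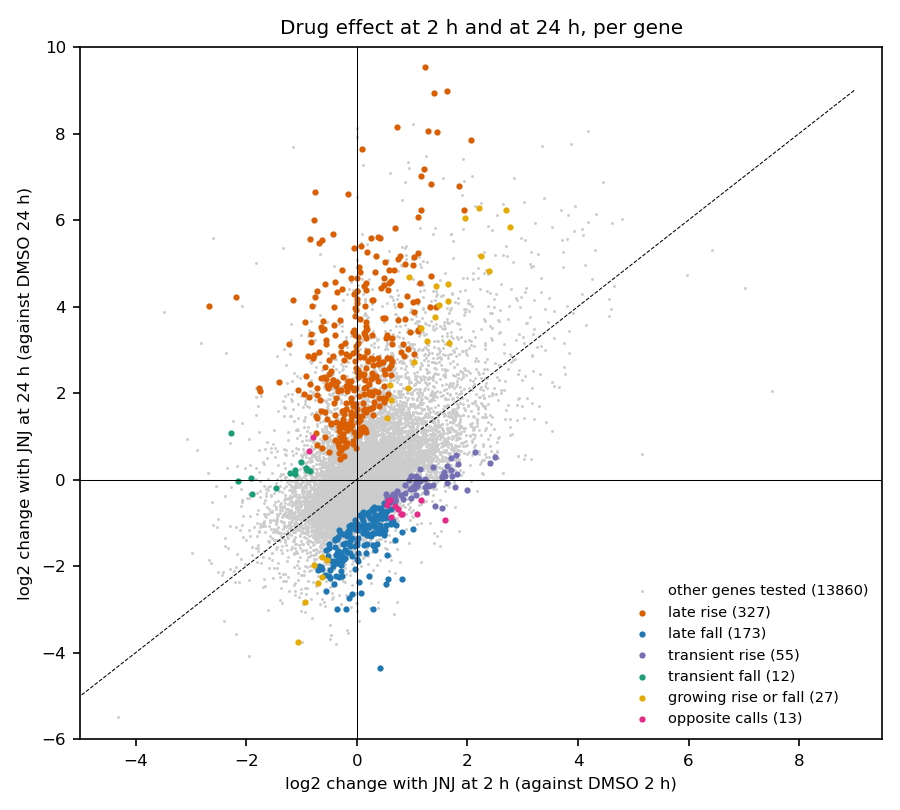
Each point is a gene, with its log2 change with JNJ against DMSO at 2 h on the x axis and at 24 h on the y axis; colours mark the response groups and the dashed line marks equal effects. The 327 late rises and 173 late falls lie along the vertical axis, and the 55 transient rises to the right near 0 at 24 h. The 13 genes with opposite calls lie in the upper left and lower right quadrants. Median effects at 2 h and 24 h were 0.74 and -0.68 for those higher then lower, and -0.83 and 0.82 in the reverse order.

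The number of calls depended on the fit and on single libraries. Replicate numbers were taken to pair the libraries within each time, though weakly for replicate 1 at 2 h. A fit with these pairs as a block called 1238 genes higher and 1335 lower. That is 48.1% higher against 59.1% without the block, and all 614 calls were kept. Under that block the late rises numbered 965 (312 of the 327 among them), the late falls 791 (148 of 173), the transient rises 304 (45 of 55), the transient falls 94 (11 of 12), the growing rises 121 and the growing falls 87, each with all of the 20 and 7 genes above, and the opposite calls 89, which hold all 13. Scaling by the upper quartile or by library totals moved the median of all genes to 0.13 and 0.09, and the split to 572 higher and 127 lower (81.8% higher) and 512 and 129 (79.9% higher). With 3 libraries a group, 125 of the 614 calls, 79 higher and 46 lower, held without any one of the 12 libraries. The count of higher calls fell to 86 without JNJ 24 h replicate 3, 124 and 146 without DMSO 24 h replicates 1 and 3, 129 without DMSO 2 h replicate 2, 163 and 237 without JNJ 24 h replicates 2 and 1, and 232 without JNJ 2 h replicate 2. The count of lower calls was 59, 93 and 157 without JNJ 24 h replicates 3, 2 and 1, 61, 75 and 146 without DMSO 24 h replicates 1, 3 and 2, 63 and 141 without DMSO 2 h replicates 2 and 1, 144 without JNJ 2 h replicate 2, whereas it was 689 on omitting JNJ 2 h replicate 3.

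**Figure D2:**
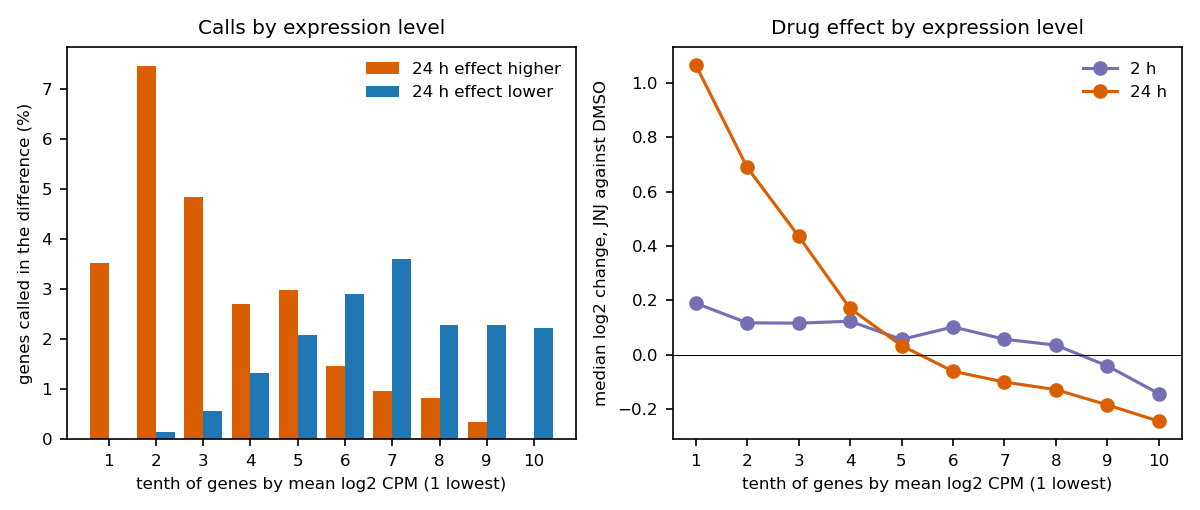
Genes are placed in 10 equal bins by mean log2 CPM (x axis, 1 lowest); the left panel gives the percentage called higher or lower in the difference and the right panel the median log2 change with JNJ at each time. Higher calls reach 7.46% in bin 2 and 0% in bin 10, lower calls 3.59% in bin 7, and the median effect at 24 h runs from 1.07 in bin 1, where genes can have passed the filter through JNJ at 24 h alone, to -0.25 in bin 10.

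The higher calls came mostly from genes with few reads and the lower calls from genes with many, as the plot of calls by expression level shows. In bin 2 of 10 by mean log2 CPM, 7.46% were called higher and 0.138% lower, whereas in bin 10 0% were called higher and 2.21% lower. This orders genes by reads and not by transcripts per cell, since CPM carries gene length. The filter keeps a gene that has enough counts in 1 group alone, so genes of the low bins can have passed it through the JNJ libraries of 24 h. The higher calls and the 24 h medians of those bins are a description only.

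The late rises of largest difference included genes of calcium signalling and transmitter release. Itpr3, an inositol trisphosphate receptor that releases calcium from the endoplasmic reticulum, stood at 0.142, 0.217 and 0.288 CPM in the DMSO libraries and 0.896, 0.366 and 0.317 in the JNJ libraries of 2 h, and at 0.144, 0.181 and 0.141 and 29.7, 34.1 and 63.7 in those of 24 h. All 3 JNJ libraries of 24 h lay above every other library. For Itpr3 the difference between the log2 effects was 6.77 (SE 0.71, adjusted p = 0.00143). At 2 h Itpr3 had an effect of 1.29 (adjusted p = 0.0974) and at 24 h of 8.06 (adjusted p = 4.6e-06). Its DMSO libraries, at 0.141 to 0.288 CPM, lay not far above the floor of 3 counts, so the size of these effects is uncertain. Plcg2, a phospholipase C that makes inositol trisphosphate, was counted at 2.08, 1.74 and 0.576 CPM (DMSO, 2 h), 0.616, 1.35 and 0.664 (JNJ, 2 h), 1.12, 1.92 and 0.48 (DMSO, 24 h) and 17, 18.4 and 30 (JNJ, 24 h). JNJ at 24 h again lay apart, and those of 2 h overlapped the vehicle. Plcg2 effects on the log2 scale were -0.75 (adjusted p = 0.395) at 2 h and 4.21 (adjusted p = 0.000291) at 24 h. Their difference for Plcg2 was 4.96 (SE 0.79, adjusted p = 0.00868). Unc13b, a Munc13 protein that primes synaptic vesicles, read 3.9, 3.48 and 4.55 CPM with DMSO at 2 h, 3.03, 3.47 and 4.88 with JNJ at 2 h, 4.4, 5.15 and 3.67 with DMSO at 24 h and 41.5, 39.6 and 59.2 with JNJ at 24 h. Libraries outside JNJ at 24 h lay between 3.03 and 5.15 CPM, and none reached the lowest JNJ library of 24 h. Unc13b had log2 effects of JNJ of -0.07 (adjusted p = 0.888) at 2 h and 3.41 (adjusted p = 1.55e-05) at 24 h. For Unc13b the 24 h effect minus the 2 h effect was 3.47 (SE 0.36, adjusted p = 0.00143). Cacna2d2, an auxiliary subunit of voltage-gated calcium channels, stood at 1.99, 1.71 and 0.892 CPM in the DMSO libraries and 2.18, 3.29 and 1.44 in the JNJ libraries of 2 h, and at 1.47, 2.64 and 0.762 and 41, 39.8 and 32.6 in those of 24 h. No JNJ library of 24 h overlapped another group. For Cacna2d2 the difference between the log2 effects was 3.95 (SE 0.62, adjusted p = 0.00818). At 2 h Cacna2d2 had an effect of 0.58 (adjusted p = 0.405) and at 24 h of 4.53 (adjusted p = 6.37e-05). Itpr3, Plcg2, Unc13b and Cacna2d2 kept the called difference whichever of the 12 libraries was left out.

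Scube1, a secreted protein with CUB and EGF-like domains, was counted at 0.798, 0.408 and 0.0576 CPM (DMSO, 2 h), 0.7, 0.878 and 0.0866 (JNJ, 2 h), 0.633, 0.751 and 0.226 (DMSO, 24 h) and 26.9, 27.5 and 25.3 (JNJ, 24 h). Levels with JNJ at 24 h were close to each other and above all other libraries. Scube1 effects on the log2 scale were 0.38 (adjusted p = 0.779) at 2 h and 5.62 (adjusted p = 0.000308) at 24 h. Their difference for Scube1 was 5.24 (SE 1.05, adjusted p = 0.0191). Replicate 3 of DMSO and of JNJ at 2 h stood at or below the floor of 3 counts, so the size of that difference is uncertain. Dgkk, a diacylglycerol kinase, read 2.17, 1.82 and 0.345 CPM with DMSO at 2 h, 1.09, 1.94 and 0.577 with JNJ at 2 h, 0.605, 2.48 and 0.508 with DMSO at 24 h and 23.7, 31.9 and 20.9 with JNJ at 24 h. It too was read well above the other groups in each JNJ library of 24 h, and its JNJ libraries of 2 h overlapped the vehicle. Dgkk had log2 effects of JNJ of -0.28 (adjusted p = 0.823) at 2 h and 4.40 (adjusted p = 0.000849) at 24 h. For Dgkk the 24 h effect minus the 2 h effect was 4.68 (SE 0.98, adjusted p = 0.0222). Scube1 lost the call (adjusted p up to 0.0558) when DMSO 2 h replicate 1, DMSO 24 h replicate 1 and JNJ 24 h replicate 3 were each left out. Dgkk lost the call (adjusted p up to 0.0602) when DMSO 2 h replicate 2, DMSO 24 h replicates 1 and 3 and JNJ 24 h replicates 2 and 3 were each left out.

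Growing rises were already called at 2 h and called again, higher, at 24 h. Slc17a7, the vesicular glutamate transporter VGLUT1 of mature granule neurons, stood at 2.22, 1.77 and 1.58 CPM in the DMSO libraries and 7.23, 6.22 and 4.13 in the JNJ libraries of 2 h, and at 1.76, 1.6 and 1.38 and 31, 33 and 45.2 in those of 24 h. Libraries with JNJ lay above the vehicle of their own time at both times, and those of 24 h lay above those of 2 h. For Slc17a7 the difference between the log2 effects was 2.87 (SE 0.38, adjusted p = 0.00485). At 2 h Slc17a7 had an effect of 1.65 (adjusted p = 0.00215) and at 24 h of 4.52 (adjusted p = 4.6e-06). Rgs10, a regulator of G protein signalling, was counted at 0.627, 0.68 and 0.604 CPM (DMSO, 2 h), 1.23, 1.43 and 1.01 (JNJ, 2 h), 0.777, 0.776 and 0.621 (DMSO, 24 h) and 17.7, 19.2 and 19.4 (JNJ, 24 h). The 2 h step was small and the 24 h step large, with no overlap at either time. Rgs10 effects on the log2 scale were 0.93 (adjusted p = 0.0353) at 2 h and 4.69 (adjusted p = 3.9e-06) at 24 h. Their difference for Rgs10 was 3.75 (SE 0.38, adjusted p = 0.00143). Ret, the signalling receptor of GDNF family ligands, read 0.199, 0.136 and 0.259 CPM with DMSO at 2 h, 2.35, 0.805 and 0.75 with JNJ at 2 h, 0.23, 0.362 and 0.31 with DMSO at 24 h and 21.2, 19.7 and 27.6 with JNJ at 24 h. JNJ libraries exceeded the vehicle at 2 h as well, replicate 1 by most. Ret had log2 effects of JNJ of 2.71 (adjusted p = 0.00332) at 2 h and 6.22 (adjusted p = 1.7e-05) at 24 h. For Ret the 24 h effect minus the 2 h effect was 3.52 (SE 0.67, adjusted p = 0.0175). Its DMSO libraries, at 0.136 to 0.362 CPM, also lay not far above the floor, so the size of its effects is uncertain. Gstt3, a glutathione transferase, stood at 1.71, 1.41 and 1.01 CPM in the DMSO libraries and 3.84, 5.05 and 2.31 in the JNJ libraries of 2 h, and at 0.489, 1.55 and 0.903 and 16.1, 26.8 and 23.4 in those of 24 h. It had the same order of groups. For Gstt3 the difference between the log2 effects was 3.05 (SE 0.59, adjusted p = 0.0179). At 2 h Gstt3 had an effect of 1.43 (adjusted p = 0.0381) and at 24 h of 4.48 (adjusted p = 6.37e-05). Slc17a7 and Rgs10 kept the called difference whichever of the 12 libraries was left out. Ret lost the call (adjusted p up to 0.0532) when JNJ 24 h replicate 3 was left out. Gstt3 lost the call (adjusted p up to 0.0558) when JNJ 24 h replicate 3 was left out.

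Genes that copy DNA were lower late. Of 52 tested DNA replication genes, 20 were called lower in the difference and 0 higher, against 1.73% and 2.51% of all genes. At 2 h 1 of the 52 was called lower and 0 higher (9 and 1 with the replicate pairs of each time as a block). At 24 h 45 were lower, against 15.1% of all genes. The median log2 effect of the list was -0.26 at 2 h and -1.19 at 24 h, the median difference was -1.0 against -0.05 over all genes, and 51 of the 52 point estimates lay below 0. Taken from libraries of 1 replicate number at a time, the median difference was -0.78 for replicate 1, -0.72 for replicate 2 and -1.48 for replicate 3. Mcm3, a subunit of the MCM helicase that unwinds DNA at the fork, was counted at 423, 477 and 451 CPM (DMSO, 2 h), 296, 337 and 372 (JNJ, 2 h), 407, 397 and 421 (DMSO, 24 h) and 122, 114 and 72.2 (JNJ, 24 h). Every JNJ library of 24 h lay below every other library. Mcm3 effects on the log2 scale were -0.43 (adjusted p = 0.157) at 2 h and -1.99 (adjusted p = 5.16e-05) at 24 h. Their difference for Mcm3 was -1.56 (SE 0.27, adjusted p = 0.0117). Orc1, the largest subunit of the origin recognition complex whose promoter is shown above, read 23.3, 25 and 24.8 CPM with DMSO at 2 h, 35.1, 33.6 and 34.3 with JNJ at 2 h, 22.4, 25.1 and 24.7 with DMSO at 24 h and 10.9, 11.8 and 7.49 with JNJ at 24 h. Its JNJ libraries of 2 h were the highest of all 12 and those of 24 h the lowest. Orc1 had log2 effects of JNJ of 0.49 (adjusted p = 0.0949) at 2 h and -1.26 (adjusted p = 0.000424) at 24 h. For Orc1 the 24 h effect minus the 2 h effect was -1.76 (SE 0.26, adjusted p = 0.00773). Mcm3 and Orc1 kept the called difference whichever of the 12 libraries was left out.

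The other 18 called members cover most steps of replication. They include the helicase subunits Mcm2 (-1.0 on the log2 scale), Mcm4 (-1.45) and Mcm5 (-1.59), the loading factor Mcm10 (-1.62), and the GINS subunits Gins2 (-1.46) and Gins3 (-0.94). Polymerase genes were Pola2 (-1.08), Prim1 (-1.02) and Pole (-1.87), with the sliding clamp Pcna (-1.57), the flap nuclease Fen1 (-1.20) and the ligase Lig1 (-1.51) that finish the lagging strand. Enzymes that make nucleotides were Rrm1 (-1.34), Rrm2 (-1.39) and Tyms (-1.61), and the chaperones that deposit histones behind the fork were Chaf1a (-1.0) and Chaf1b (-1.19). None of the genes just named was called at 2 h, and under the block of replicate pairs Rrm2 was, lower (adjusted p = 0.0191). The list kept a median between -1.09 and -0.80 without each library, but its count of lower calls was 7 without DMSO 2 h replicate 2, DMSO 24 h replicate 1, DMSO 24 h replicate 3 or JNJ 24 h replicate 3, 11 without DMSO 2 h replicate 1 or DMSO 24 h replicate 2, 12 on omitting JNJ 2 h replicate 2, and 13 without DMSO 2 h replicate 3 or JNJ 24 h replicate 1. It was 40 with the replicate pairs of each time as a block, 10 with upper-quartile scaling and 11 with library totals. Mcm5, Gins2 and Lig1 lost the call in 0 of the 12 fits with 1 library left out, Mcm10 in 1, Rrm1 and Tyms in 2, Fen1 in 4, Pcna in 5, Pola2 in 6, Rrm2 in 7, Pole in 8, Mcm4 and Chaf1a in 9, Mcm2 and Chaf1b in 10 and Gins3 and Prim1 in 11.

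Genes of the step into S phase and of repair were also called lower. Of 28 tested G1 cyclins, kinases and E2F factors, 7 were called lower in the difference and 0 higher, against 1.73% and 2.51% of all genes. The block of replicate pairs called 13 lower. Skp2, the F-box protein that targets the inhibitor p27 for degradation, stood at 172, 161 and 165 CPM in the DMSO libraries and 171, 149 and 166 in the JNJ libraries of 2 h, and at 187, 169 and 215 and 76.1, 67.8 and 51.7 in those of 24 h. Its other groups overlapped each other, and it was lower in all JNJ libraries of 24 h. For Skp2 the difference between the log2 effects was -1.51 (SE 0.23, adjusted p = 0.00773). At 2 h Skp2 had an effect of -0.04 (adjusted p = 0.914) and at 24 h of -1.54 (adjusted p = 7.62e-05). Ccne2, cyclin E2, was counted at 76.8, 69.5 and 97 CPM (DMSO, 2 h), 42, 37.5 and 48 (JNJ, 2 h), 87, 69.2 and 108 (DMSO, 24 h) and 15.5, 12.7 and 8.55 (JNJ, 24 h). Its JNJ libraries lay below the vehicle at both times, and lowest at 24 h, so that it is a growing fall. Ccne2 effects on the log2 scale were -0.93 (adjusted p = 0.0191) at 2 h and -2.84 (adjusted p = 2.69e-05) at 24 h. Their difference for Ccne2 was -1.91 (SE 0.33, adjusted p = 0.012). The other called members were Ccne1 (-1.31), Mybl2 (-1.57), Cdk2 (-1.02), E2f2 (-1.27) and Lin54 (-1.18), of which Ccne1, E2f2 and Lin54 had been called higher at 2 h (0.69, 0.83 and 0.95). Skp2 and Ccne2 kept the called difference whichever of the 12 libraries was left out. Mybl2 lost the call in 6 of the 12 fits with 1 library left out, Cdk2 and E2f2 in 9 and Lin54 in 11. The list's count was 2 without DMSO 2 h replicate 2, DMSO 24 h replicates 1 or 3 or JNJ 24 h replicate 3, and 4 without DMSO 2 h replicates 1 or 3, or JNJ 24 h replicates 1 or 2, or with either upper-quartile scaling or library totals.

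Of 43 tested genes of homologous recombination and checkpoints, 7 were called lower in the difference and 0 higher, against 1.73% and 2.51% of all genes. With replicate pairs as a block 25 were lower and 2 higher. Xrcc2, a homologous recombination factor, read 42.3, 40.6 and 28.1 CPM with DMSO at 2 h, 57, 47.1 and 31.4 with JNJ at 2 h, 43.4, 39.2 and 44.2 with DMSO at 24 h and 16.4, 16.4 and 11.5 with JNJ at 24 h. All JNJ libraries of 24 h were below all others. Xrcc2 had log2 effects of JNJ of 0.29 (adjusted p = 0.454) at 2 h and -1.51 (adjusted p = 0.000671) at 24 h. For Xrcc2 the 24 h effect minus the 2 h effect was -1.80 (SE 0.34, adjusted p = 0.016). The others were Brca1 (-1.77), Fancd2 (-1.58), Fancm (-1.89), the checkpoint kinase gene Chek1 (-1.32), the fork protection factor Timeless (-1.38) and the nuclease gene Exo1 (-1.34). Xrcc2 kept the called difference whichever of the 12 libraries was left out. Brca1 lost the call in 2 of the 12 fits with 1 library left out, Chek1 in 7, Timeless and Exo1 in 8 and Fancd2 in 9. The list's count of lower calls was 2 without DMSO 2 h replicate 2 or DMSO 24 h replicate 1, 3 without DMSO 2 h replicate 3, DMSO 24 h replicate 3 or JNJ 24 h replicate 3, or with upper-quartile scaling or library totals, 4 without JNJ 2 h replicate 2 or DMSO 24 h replicate 2, and 11 without JNJ 2 h replicate 3. Few mitosis genes passed the test of the difference. Of 57 tested, 39 were called lower at 24 h and 0 at 2 h, against 15.1% and 4.59% of all genes. In the difference 1 was called lower, the kinetochore gene Spc24 (-1.41), and 1 higher, the securin gene Pttg1 (1.02), against 1.73% and 2.51%. The list's median difference was -0.74, and 55 of 57 estimates lay below 0. It was uneven by replicate number, at -0.41 for replicate 1, -0.31 for replicate 2 and -1.58 for replicate 3. Leaving out JNJ 24 h replicate 3 moved the median to -0.49. At 25 genes an unadjusted p under 0.05 was in the lower direction, and the block of replicate pairs called 11 lower. The count was 0 lower without 9 of the libraries, all but DMSO 24 h replicate 2, JNJ 2 h replicate 3 and JNJ 24 h replicate 1. Pttg1 kept its call on leaving out DMSO 2 h replicate 3 and JNJ 2 h replicates 1, 2 and 3, and lost it on leaving out each of the other 8 libraries (adjusted p up to 0.0838).

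**Figure D3:**
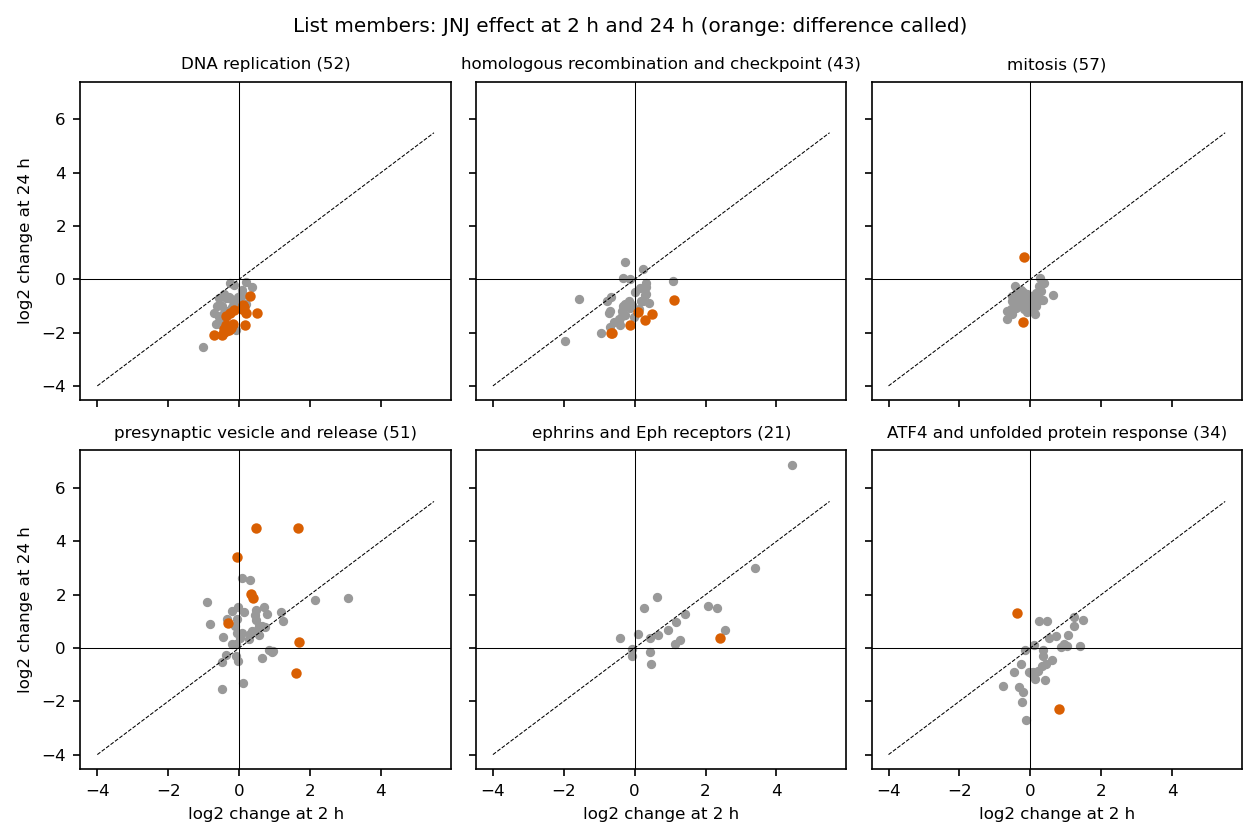
Each panel plots the tested members of 1 list, with the log2 change with JNJ at 2 h on the x axis and at 24 h on the y axis; orange points have a called difference and the dashed line marks equal effects. The 52 replication genes lie below the line with 1 exception, whereas the 51 presynaptic genes spread to both sides.

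The late and growing falls with the largest differences are described next. Nradd, a death-domain homologue of the p75 neurotrophin receptor, stood at 29.7, 41.3 and 21.8 CPM in the DMSO libraries and 56.4, 59 and 21.5 in the JNJ libraries of 2 h, and at 30.7, 28.2 and 20.8 and 6.84, 5.67 and 3.74 in those of 24 h. JNJ at 24 h gave the lowest libraries, and replicate 3 was the lowest within each group. For Nradd the difference between the log2 effects was -2.85 (SE 0.52, adjusted p = 0.0147). At 2 h Nradd had an effect of 0.56 (adjusted p = 0.327) and at 24 h of -2.29 (adjusted p = 0.000815). Ppapdc1b, a member of the phosphatidic acid phosphatase family, was counted at 7.83, 7.45 and 6.53 CPM (DMSO, 2 h), 7.48, 7.35 and 4.21 (JNJ, 2 h), 9.7, 8.98 and 7.96 (DMSO, 24 h) and 1.48, 0.993 and 0.828 (JNJ, 24 h). The other groups overlapped each other and the JNJ libraries of 24 h did not overlap them. Ppapdc1b effects on the log2 scale were -0.20 (adjusted p = 0.704) at 2 h and -3.00 (adjusted p = 7.73e-05) at 24 h. Their difference for Ppapdc1b was -2.80 (SE 0.44, adjusted p = 0.00773). Lrrc4, a synaptic adhesion protein that binds netrin-G2, read 16.8, 18.2 and 9.99 CPM with DMSO at 2 h, 14.5, 12 and 8.46 with JNJ at 2 h, 15.9, 14.1 and 12.7 with DMSO at 24 h and 1.97, 2.11 and 1.22 with JNJ at 24 h. It showed the same separation. Lrrc4 had log2 effects of JNJ of -0.37 (adjusted p = 0.447) at 2 h and -3.00 (adjusted p = 7.47e-05) at 24 h. For Lrrc4 the 24 h effect minus the 2 h effect was -2.64 (SE 0.43, adjusted p = 0.0103). Chac1, a glutathione-degrading enzyme induced through ATF4, stood at 3.53, 8.07 and 6.1 CPM in the DMSO libraries and 7.31, 10.9 and 12.9 in the JNJ libraries of 2 h, and at 40.9, 6.78 and 12.2 and 3.34, 5.48 and 3.35 in those of 24 h. A single vehicle library, DMSO 24 h replicate 1, stood far above the rest, and the JNJ libraries of 24 h did not overlap their vehicle. For Chac1 the difference between the log2 effects was -3.11 (SE 0.78, adjusted p = 0.0434). At 2 h Chac1 had an effect of 0.81 (adjusted p = 0.347) and at 24 h of -2.30 (adjusted p = 0.00777). Nradd, Ppapdc1b and Lrrc4 kept the called difference whichever of the 12 libraries was left out. Chac1 kept its call on leaving out JNJ 2 h replicate 1 and DMSO 24 h replicate 2, and lost it on leaving out each of the other 10 libraries (adjusted p up to 0.115).

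Rcbtb2, a protein with RCC1 and BTB domains, was counted at 115, 85.3 and 74.3 CPM (DMSO, 2 h), 26.1, 53.9 and 51.9 (JNJ, 2 h), 86.4, 105 and 99.7 (DMSO, 24 h) and 7.65, 9.06 and 4.85 (JNJ, 24 h). It was lower than the vehicle in every JNJ library of 2 h and lower again at 24 h. Rcbtb2 effects on the log2 scale were -1.06 (adjusted p = 0.0275) at 2 h and -3.75 (adjusted p = 2.12e-05) at 24 h. Their difference for Rcbtb2 was -2.69 (SE 0.41, adjusted p = 0.00773). Dna2, a nuclease and helicase that trims Okazaki fragments and resects DNA ends, read 43.1, 31.5 and 33.2 CPM with DMSO at 2 h, 25.9, 21 and 19.3 with JNJ at 2 h, 50.9, 53.2 and 54.1 with DMSO at 24 h and 12.1, 10.9 and 7.17 with JNJ at 24 h. Its JNJ libraries were the lowest of each time. Dna2 had log2 effects of JNJ of -0.70 (adjusted p = 0.0445) at 2 h and -2.39 (adjusted p = 3.56e-05) at 24 h. For Dna2 the 24 h effect minus the 2 h effect was -1.68 (SE 0.30, adjusted p = 0.0143). Rnaseh2b, a subunit of the enzyme that removes ribonucleotides from DNA, stood at 79, 81.4 and 74.2 CPM in the DMSO libraries and 45.4, 58.2 and 57.6 in the JNJ libraries of 2 h, and at 75.3, 70.5 and 89.6 and 24.3, 21.7 and 18.4 in those of 24 h. No overlap was seen at either time. For Rnaseh2b the difference between the log2 effects was -1.33 (SE 0.23, adjusted p = 0.0133). At 2 h Rnaseh2b had an effect of -0.54 (adjusted p = 0.046) and at 24 h of -1.87 (adjusted p = 3.31e-05). Rcbtb2, Dna2 and Rnaseh2b kept the called difference whichever of the 12 libraries was left out. Besides Ccne2, the other growing falls were Cdca7, Meaf6 and an uncharacterised gene listed under a clone name.

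Per1, Per2, Efna1 and Apcdd1 were the early rises of largest difference that were no longer called at 24 h. Per1, a repressor of the circadian clock and an early gene for many stimuli, was counted at 21.1, 26.5 and 26.8 CPM (DMSO, 2 h), 114, 132 and 172 (JNJ, 2 h), 17, 23.1 and 16.4 (DMSO, 24 h) and 23.6, 31.5 and 26 (JNJ, 24 h). All JNJ libraries of 2 h were above all other libraries, which stayed at 31.5 CPM or less. Per1 effects on the log2 scale were 2.49 (adjusted p = 8.54e-05) at 2 h and 0.52 (adjusted p = 0.0667, 0.0065 with the replicate pairs of each time as a block) at 24 h. Their difference for Per1 was -1.97 (SE 0.29, adjusted p = 0.00773). Per2, its paralogue, read 17.4, 30.2 and 25.2 CPM with DMSO at 2 h, 99.5, 49.7 and 45.6 with JNJ at 2 h, 25, 25.8 and 11.1 with DMSO at 24 h and 13.8, 14.3 and 12.4 with JNJ at 24 h. Again JNJ at 2 h gave the highest libraries, replicate 1 by far. Per2 had log2 effects of JNJ of 1.42 (adjusted p = 0.0188) at 2 h and -0.61 (adjusted p = 0.202) at 24 h. For Per2 the 24 h effect minus the 2 h effect was -2.03 (SE 0.50, adjusted p = 0.0402). Efna1, an ephrin ligand tethered to the cell surface, stood at 10.1, 16.6 and 16.4 CPM in the DMSO libraries and 113, 76.1 and 40.5 in the JNJ libraries of 2 h, and at 18, 10.8 and 11.6 and 20.6, 15.9 and 16 in those of 24 h. JNJ at 2 h raised it in all 3 libraries, from 40.5 to 113 CPM, and JNJ libraries of 24 h overlapped the vehicle. For Efna1 the difference between the log2 effects was -2.04 (SE 0.48, adjusted p = 0.0339). At 2 h Efna1 had an effect of 2.42 (adjusted p = 0.00118) and at 24 h of 0.38 (adjusted p = 0.422). Apcdd1, a membrane inhibitor of Wnt signalling and not a member of the Wnt pathway list (1 of 46 called higher in the difference, 0 lower), was counted at 18.3, 14.2 and 18 CPM (DMSO, 2 h), 121, 43.9 and 36.3 (JNJ, 2 h), 36.1, 15.2 and 22.1 (DMSO, 24 h) and 23.9, 18 and 19.9 (JNJ, 24 h). The spread among the JNJ libraries of 2 h was wide, with replicate 1 the highest. Apcdd1 effects on the log2 scale were 1.99 (adjusted p = 0.00785) at 2 h and -0.25 (adjusted p = 0.675) at 24 h. Their difference for Apcdd1 was -2.24 (SE 0.58, adjusted p = 0.048). Per1 kept the called difference whichever of the 12 libraries was left out. Per2 kept its call on leaving out JNJ 2 h replicates 2 and 3 and DMSO 24 h replicate 3, and lost it on leaving out each of the other 9 libraries (adjusted p up to 0.103). Efna1 kept its call on leaving out DMSO 2 h replicate 3, JNJ 2 h replicate 3, DMSO 24 h replicate 2 and JNJ 24 h replicate 1, and lost it on leaving out each of the other 8 libraries (adjusted p up to 0.0943). Apcdd1 kept its call on leaving out JNJ 2 h replicates 2 and 3 and DMSO 24 h replicate 2, and lost it on leaving out each of the other 9 libraries (adjusted p up to 0.12).

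Further transient rises, named after their values were seen because their calls held without any one library, were Armc7, an armadillo repeat protein (1.63 at 2 h, -0.08 at 24 h, difference -1.72), and Nynrin (1.72, 0.07 and -1.64). Armc7 read 9, 14.9 and 11 CPM with DMSO at 2 h, 30.8, 35.9 and 41.4 with JNJ at 2 h, 6.62, 7.32 and 6.71 with DMSO at 24 h and 5.62, 6.95 and 6.94 with JNJ at 24 h. The JNJ libraries of 2 h lay above all others. Nynrin stood at 41.4, 35.1 and 29.2 CPM in the DMSO libraries and 137, 94.9 and 115 in the JNJ libraries of 2 h, and at 48.9, 42.8 and 38.8 and 44.6, 47.6 and 45.2 in those of 24 h. Its JNJ libraries of 2 h lay above all others. Rell1, a receptor-like protein of the RELT family, was counted at 35.2, 35.6 and 37.5 CPM (DMSO, 2 h), 183, 121 and 96.6 (JNJ, 2 h), 50.4, 38.2 and 41.4 (DMSO, 24 h) and 73.8, 65.4 and 67.2 (JNJ, 24 h). It was highest with JNJ at 2 h and still above its vehicle at 24 h, a rise that had shrunk but was called at both times. Rell1 had log2 effects of JNJ of 1.89 (adjusted p = 0.000331) at 2 h and 0.67 (adjusted p = 0.0264) at 24 h. For Rell1 the 24 h effect minus the 2 h effect was -1.22 (SE 0.30, adjusted p = 0.0381). Rell1 kept its call on leaving out JNJ 2 h replicates 1 and 3 and DMSO 24 h replicate 2, and lost it on leaving out each of the other 9 libraries (adjusted p up to 0.103).

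Transient falls were fewer. Iba57, a mitochondrial iron-sulphur cluster assembly factor, read 12.5, 13.6 and 20.8 CPM with DMSO at 2 h, 2.74, 3.04 and 4.79 with JNJ at 2 h, 12.9, 11.5 and 17.1 with DMSO at 24 h and 13.4, 11.5 and 15.8 with JNJ at 24 h. JNJ at 2 h lay below all others, and its libraries of 24 h overlapped the vehicle. For Iba57 the difference between the log2 effects was 2.11 (SE 0.41, adjusted p = 0.0175). At 2 h Iba57 had an effect of -2.14 (adjusted p = 0.000981) and at 24 h of -0.03 (adjusted p = 0.947). Thap1, a zinc finger transcription factor, stood at 15.4, 23.4 and 27.1 CPM in the DMSO libraries and 4.76, 6.22 and 6.69 in the JNJ libraries of 2 h, and at 14.7, 15.4 and 15.6 and 13, 12.1 and 11.2 in those of 24 h. JNJ at 2 h gave the lowest libraries once more. Thap1 effects on the log2 scale were -1.90 (adjusted p = 0.00055) at 2 h and -0.33 (adjusted p = 0.292) at 24 h. Their difference for Thap1 was 1.57 (SE 0.33, adjusted p = 0.0225). Exoc6, a subunit of the exocyst that tethers vesicles, was counted at 19.8, 14.1 and 12.7 CPM (DMSO, 2 h), 5.97, 8.08 and 8.97 (JNJ, 2 h), 13.6, 14.5 and 19 (DMSO, 24 h) and 16.6, 21.7 and 23.8 (JNJ, 24 h). Differences between groups were smaller here. Exoc6 had log2 effects of JNJ of -1.02 (adjusted p = 0.0186) at 2 h and 0.40 (adjusted p = 0.242) at 24 h. For Exoc6 the 24 h effect minus the 2 h effect was 1.42 (SE 0.35, adjusted p = 0.043). Iba57 lost the call (adjusted p up to 0.0558) when DMSO 24 h replicate 1 and JNJ 24 h replicate 3 were each left out. Thap1 lost the call (adjusted p up to 0.0653) when DMSO 2 h replicate 2, DMSO 24 h replicates 1 and 3 and JNJ 24 h replicates 2 and 3 were each left out. Exoc6 kept its call on leaving out DMSO 2 h replicate 3 and JNJ 2 h replicate 3, and lost it on leaving out each of the other 10 libraries (adjusted p up to 0.117).

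Specc1l, which links microtubules and actin, read 143, 138 and 131 CPM with DMSO at 2 h, 45.3, 64 and 57.3 with JNJ at 2 h, 158, 144 and 163 with DMSO at 24 h and 105, 114 and 126 with JNJ at 24 h. It was lowest with JNJ at 2 h, and partly back at 24 h. For Specc1l the difference between the log2 effects was 0.87 (SE 0.22, adjusted p = 0.0424). At 2 h Specc1l had an effect of -1.31 (adjusted p = 0.000402) and at 24 h of -0.43 (adjusted p = 0.0453). Specc1l kept its call on leaving out JNJ 2 h replicates 2 and 3, and lost it on leaving out each of the other 10 libraries (adjusted p up to 0.115). Adra1b, the alpha-1B adrenergic receptor (-2.27 at 2 h, 1.09 at 24 h, difference 3.36), and Atf7ip, a co-factor of the histone methyltransferase SETDB1 (-1.21, 0.15 and 1.36), were further transient falls whose called difference held without any one library. With the replicate pairs of each time as a block Adra1b was also called higher at 24 h (adjusted p = 0.0215), lower and then higher.

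**Figure D4:**
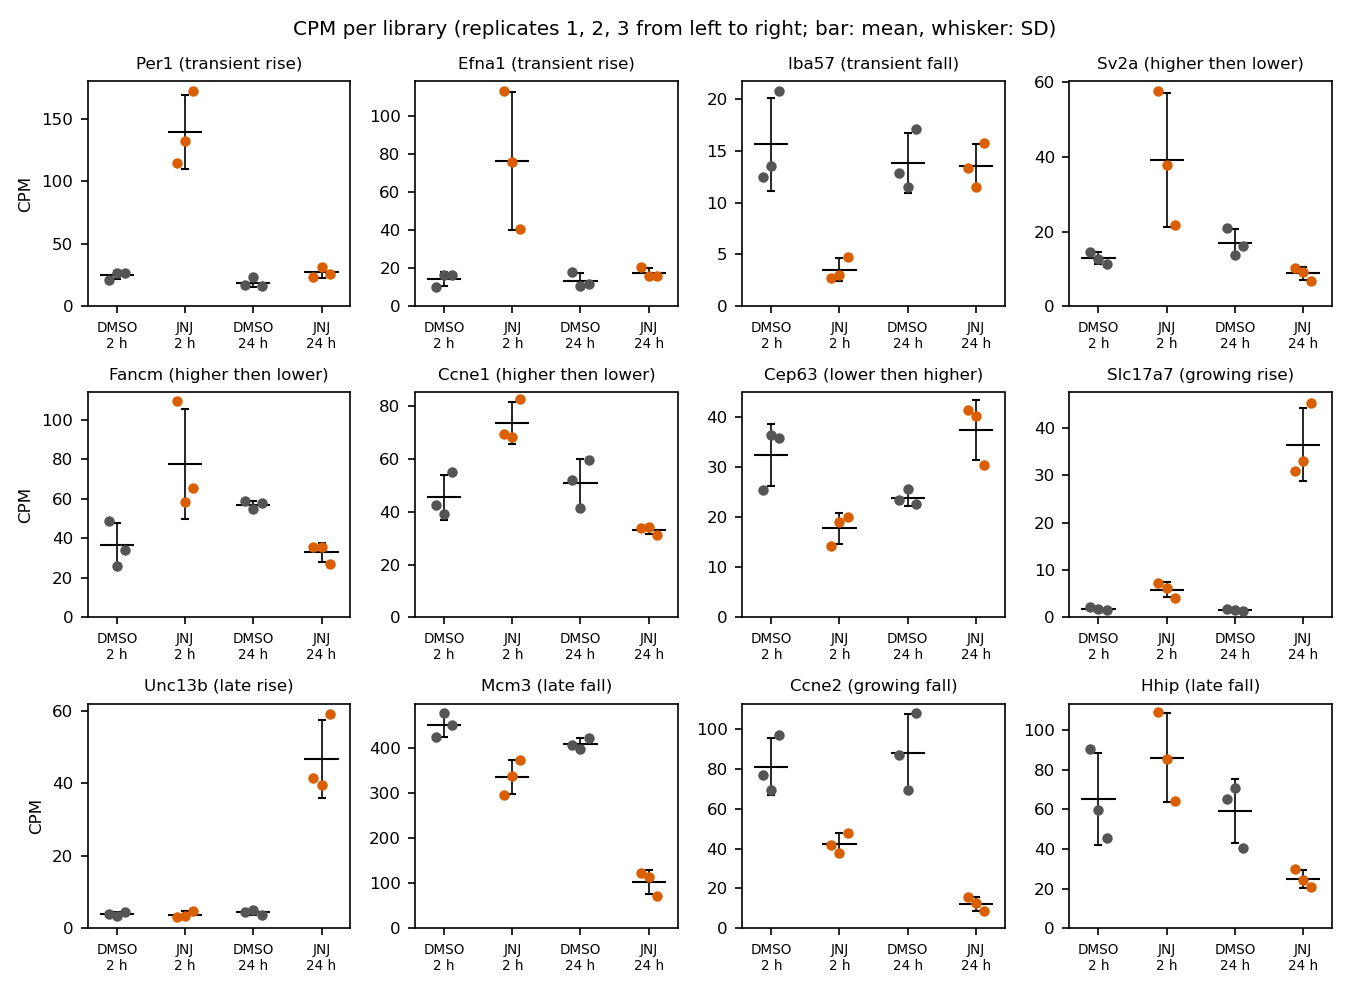
CPM of 12 genes in each library (y axis; grey DMSO, orange JNJ; bar, mean of 3; whisker, SD), with the response group in the title. Per1 is highest in the 3 JNJ libraries of 2 h and Unc13b in those of 24 h. Mcm3 is lowest in the JNJ libraries of 24 h, and Sv2a is above its vehicle at 2 h and below it at 24 h.

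At 13 genes the drug effect was called in opposite directions. Sv2a, a glycoprotein of synaptic vesicles, stood at 14.6, 12.8 and 11.3 CPM in the DMSO libraries and 57.7, 37.8 and 21.9 in the JNJ libraries of 2 h, and at 20.9, 13.6 and 16.2 and 10.3, 9.32 and 6.82 in those of 24 h. JNJ libraries of 2 h were above all others and those of 24 h below their vehicle. Sv2a effects on the log2 scale were 1.60 (adjusted p = 0.00562) at 2 h and -0.94 (adjusted p = 0.0347) at 24 h. Their difference for Sv2a was -2.54 (SE 0.44, adjusted p = 0.0127). Gltpd1, a ceramide-1-phosphate transfer protein, was counted at 25.9, 26.1 and 29.4 CPM (DMSO, 2 h), 64.5, 56.5 and 60.4 (JNJ, 2 h), 23.6, 22.5 and 24 (DMSO, 24 h) and 14.9, 17.6 and 18.1 (JNJ, 24 h). The groups did not overlap at either time, and the replicates were tight. Gltpd1 had log2 effects of JNJ of 1.16 (adjusted p = 0.000791) at 2 h and -0.47 (adjusted p = 0.0304) at 24 h. For Gltpd1 the 24 h effect minus the 2 h effect was -1.63 (SE 0.22, adjusted p = 0.00485). Fancm, a DNA translocase that remodels stalled forks, read 48.9, 26 and 34.4 CPM with DMSO at 2 h, 109.7, 58.2 and 65.6 with JNJ at 2 h, 58.7, 54.9 and 57.9 with DMSO at 24 h and 35.7, 35.9 and 27.3 with JNJ at 24 h. JNJ libraries of 2 h lay above all DMSO libraries of 2 h, and those of 24 h below all DMSO libraries of 24 h. The DMSO libraries of 24 h themselves stood above those of 2 h, and JNJ at 24 h overlapped DMSO at 2 h. For Fancm the difference between the log2 effects was -1.89 (SE 0.37, adjusted p = 0.0184). At 2 h Fancm had an effect of 1.10 (adjusted p = 0.0159) and at 24 h of -0.79 (adjusted p = 0.0333). Stil, a factor of centriole duplication, stood at 49.8, 52.4 and 47.9 CPM in the DMSO libraries and 109, 74.7 and 80.4 in the JNJ libraries of 2 h, and at 60.8, 53.1 and 65.3 and 41.6, 39.1 and 22.2 in those of 24 h. It behaved likewise. Stil effects on the log2 scale were 0.81 (adjusted p = 0.0306) at 2 h and -0.80 (adjusted p = 0.0162) at 24 h. Their difference for Stil was -1.61 (SE 0.32, adjusted p = 0.0186). Sv2a and Gltpd1 kept the called difference whichever of the 12 libraries was left out. Fancm lost the call (adjusted p up to 0.0588) when JNJ 24 h replicate 3 was left out. Stil lost the call (adjusted p up to 0.0501) when DMSO 24 h replicate 1 was left out.

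Other genes raised at 2 h and lowered at 24 h were cyclin E1 (Ccne1, 0.69 and -0.62), Npat, a coactivator of replication-dependent histone genes (0.57 and -0.50), Ticrr, which helps to fire replication origins (0.80 and -0.80), Dph2, Hunk, Zfp827 and a gene listed under a clone name. Ccne1 was counted at 42.4, 39.1 and 55.3 CPM (DMSO, 2 h), 69.5, 68.3 and 82.6 (JNJ, 2 h), 52, 41.5 and 59.6 (DMSO, 24 h) and 33.8, 34.4 and 31.4 (JNJ, 24 h). Npat read 103, 113 and 111 CPM with DMSO at 2 h, 157, 155 and 174 with JNJ at 2 h, 99.6, 109 and 108 with DMSO at 24 h and 73.5, 79.4 and 70.1 with JNJ at 24 h. For both genes the JNJ libraries did not overlap their vehicle at either time. Npat and Ticrr kept the called difference whichever of the 12 libraries was left out. Ccne1 lost the call (adjusted p up to 0.0589) when DMSO 2 h replicate 2, DMSO 24 h replicates 1 and 3 and JNJ 24 h replicate 3 were each left out.

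In the reverse order, Pex7, a receptor for import of peroxisomal proteins, stood at 14.2, 16 and 15.5 CPM in the DMSO libraries and 6.25, 8.96 and 11.1 in the JNJ libraries of 2 h, and at 14.7, 12.8 and 16.7 and 27.9, 27.5 and 32.6 in those of 24 h. The lowest 3 libraries were those of JNJ at 2 h and the highest 3 those of JNJ at 24 h. Pex7 had log2 effects of JNJ of -0.80 (adjusted p = 0.0316) at 2 h and 0.99 (adjusted p = 0.00459) at 24 h. For Pex7 the 24 h effect minus the 2 h effect was 1.79 (SE 0.31, adjusted p = 0.0127). Cep63, a centrosomal protein, was counted at 25.4, 36.4 and 35.8 CPM (DMSO, 2 h), 14.3, 19 and 20.1 (JNJ, 2 h), 23.4, 25.7 and 22.6 (DMSO, 24 h) and 41.5, 40.3 and 30.5 (JNJ, 24 h). JNJ lowered it below all other libraries at 2 h, and at 24 h the JNJ libraries lay above their vehicle. JNJ 24 h replicate 3, at 30.5 CPM, lay within the range of DMSO at 2 h. For Cep63 the difference between the log2 effects was 1.52 (SE 0.29, adjusted p = 0.0175). At 2 h Cep63 had an effect of -0.87 (adjusted p = 0.0148) and at 24 h of 0.65 (adjusted p = 0.0272). Pex7 kept the called difference whichever of the 12 libraries was left out. Cep63 lost the call (adjusted p up to 0.0505) when DMSO 24 h replicate 1 was left out.

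Of 51 tested presynaptic genes, 22 were called higher and 3 lower at 24 h (18.1% and 15.1% of all genes), and 8 higher and 0 lower at 2 h (9.11% and 4.59%). In the difference 6 were higher and 2 lower (12 and 3 under the block of replicate pairs), against 2.51% and 1.73% of all genes. The median log2 effect was 0.32 at 2 h and 0.81 at 24 h, with a median difference of 0.34. Higher calls were more frequent among genes with few reads (7.46% in bin 2, 0% in bin 10), and the shares of all genes are not matched for level. Members with few reads can have passed the filter through JNJ at 24 h alone. Besides Unc13b and Slc17a7, the higher calls were Rab3b, a vesicle GTPase (4.01), Syt1, the calcium sensor of release (1.71), Snap91, an endocytic adaptor (1.47), and Syn1, synapsin I (1.23). Rab3b read 0.456, 0.68 and 0.863 CPM with DMSO at 2 h, 1.18, 0.549 and 1.07 with JNJ at 2 h, 0.748, 0.621 and 0.536 with DMSO at 24 h and 12.2, 10.1 and 21.1 with JNJ at 24 h. Syt1 stood at 14.2, 15.3 and 16.6 CPM in the DMSO libraries and 22.4, 21.8 and 13.9 in the JNJ libraries of 2 h, and at 19.4, 12.7 and 20.1 and 68.2, 57.3 and 88.4 in those of 24 h. Both were read higher with JNJ at 24 h than in any other library. The lower calls were Sv2a (-2.54) and Syngr3 (-1.49), each raised at 2 h. Rab3b kept the called difference whichever of the 12 libraries was left out. Syt1 lost the call (adjusted p up to 0.0614) when DMSO 2 h replicate 2 and JNJ 24 h replicate 3 were each left out. Snap91, Syn1 and Syngr3 lost the call in 10 of the 12 fits with 1 library left out. The list's count of higher calls was 3 without DMSO 2 h replicate 2 or JNJ 24 h replicate 3, and its lower count 1 without each library other than JNJ 2 h replicates 1 and 3, and 4 without JNJ 2 h replicate 3.

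Of 34 tested sodium and calcium channel genes, 5 were called higher in the difference and 0 lower, against 2.51% and 1.73% of all genes. Under the block 9 were higher and 2 lower. At 2 h 4 were called higher and at 24 h 14, against 9.11% and 18.1%. The shares of all genes are not matched for expression level, and 7.46% of genes were called higher in the difference in bin 2 but 0% in bin 10. Members with few reads can have passed the filter through JNJ at 24 h alone. Higher in the difference were Itpr3, Cacna2d2, the ryanodine receptor Ryr1 (3.98), the sodium channel Scn3a (2.62) and Itpr2 (2.52). Of these, Itpr3, Ryr1 and Itpr2 are release channels of internal calcium stores. Ryr1 was counted at 0.598, 0.652 and 0.201 CPM (DMSO, 2 h), 0.868, 0.768 and 0.346 (JNJ, 2 h), 0.605, 0.673 and 0.197 (DMSO, 24 h) and 15.3, 8.64 and 7.88 (JNJ, 24 h). No other group reached the JNJ libraries of 24 h. The count was 2 without DMSO 2 h replicate 2, and 3 without DMSO 2 h replicate 1, DMSO 24 h replicates 1 or 3, or JNJ 24 h replicates 2 or 3. Of 55 potassium channel genes, 2 were called higher in the difference, Kcnh3 (2.56) and Kcna1 (4.06), and 0 lower (8 and 4 under the block), against 2.51% and 1.73% of all genes. At 24 h 19 were called higher and 2 lower (22 and 9 under the block), against 18.1% and 15.1%. Ryr1 lost the call (adjusted p up to 0.054) when DMSO 2 h replicate 2 was left out. Kcna1 kept its call on leaving out DMSO 2 h replicate 3 and JNJ 2 h replicate 1, and lost it on leaving out each of the other 10 libraries (adjusted p up to 0.142). Itpr2 lost the call in 7 of the 12 fits with 1 library left out, Scn3a in 8 and Kcnh3 in 10.

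Of 36 tested cytoskeletal and growth cone genes of neurons, 2 were called higher in the difference and 1 lower (4 and 3 under the block), against 2.51% and 1.73% of all genes. Nefh, the heavy neurofilament chain, read 0.741, 0.516 and 0.691 CPM with DMSO at 2 h, 0.7, 0.402 and 0.635 with JNJ at 2 h, 0.576, 1.11 and 0.903 with DMSO at 24 h and 3.53, 4.1 and 5.08 with JNJ at 24 h. Its JNJ libraries of 24 h stood above all others. Nefh effects on the log2 scale were -0.16 (adjusted p = 0.832) at 2 h and 2.29 (adjusted p = 0.00111) at 24 h. Their difference for Nefh was 2.44 (SE 0.56, adjusted p = 0.0318). Mapt, the microtubule protein tau, stood at 12.7, 17.2 and 17.5 CPM in the DMSO libraries and 53.2, 22.5 and 21.7 in the JNJ libraries of 2 h, and at 13.2, 16.6 and 8.8 and 88.4, 105 and 95.5 in those of 24 h. It was higher in every JNJ library of 24 h, and JNJ 2 h replicate 1 was above the rest of its time. Mapt had log2 effects of JNJ of 1.04 (adjusted p = 0.0526) at 2 h and 2.90 (adjusted p = 0.000127) at 24 h. For Mapt the 24 h effect minus the 2 h effect was 1.86 (SE 0.46, adjusted p = 0.0424). Nefh kept its call on leaving out DMSO 2 h replicate 3, JNJ 2 h replicates 1 and 3, DMSO 24 h replicate 2 and JNJ 24 h replicate 1, and lost it on leaving out each of the other 7 libraries (adjusted p up to 0.0941). Mapt kept its call on leaving out JNJ 2 h replicates 1 and 3 and DMSO 24 h replicate 2, and lost it on leaving out each of the other 9 libraries (adjusted p up to 0.0974). The lower member was Nsg1 (-1.57). Among 17 receptors of the neurotrophin and GDNF families 2 were higher, Ret among them, and 1 was lower, against 2.51% and 1.73% of all genes. The lower one was Ntrk3, the neurotrophin-3 receptor (-1.56), and the block called 5 higher and 2 lower. Ntrk3 was counted at 213, 186 and 158 CPM (DMSO, 2 h), 278, 268 and 155 (JNJ, 2 h), 255, 219.7 and 217 (DMSO, 24 h) and 128, 87.2 and 78.7 (JNJ, 24 h). Ntrk3 was lowest in the JNJ libraries of 24 h. Ntrk3 lost the call (adjusted p up to 0.0769) when DMSO 2 h replicate 2, JNJ 2 h replicate 2, DMSO 24 h replicates 1 and 3 and JNJ 24 h replicates 2 and 3 were each left out. Nsg1 lost the call in 4 of the 12 fits with 1 library left out.

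Secretory granule genes, which package peptides and prohormones, had the larger median effect at 24 h, but no member passed the test of the difference. Of 28 members 18 were tested, and members with few reads can have passed the filter through JNJ at 24 h alone. Of the 18, 10 were called higher at 24 h and 2 at 2 h, against 18.1% and 9.11% of all genes. The median log2 effects were 1.66 and 0.44, with a median difference of 1.09, as a description only. In the difference 0 were called by edgeR, 7 had an unadjusted p under 0.05 in the higher direction and 1 in the lower, DESeq2 called 4 higher, limma-voom 0, and the block of replicate pairs 6 higher.

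Receptor families are given next. Of 21 ephrins and Eph receptors, 11 were called higher at 2 h and 9 at 24 h, against 9.11% and 18.1% of all genes. Their medians were 0.95 and 0.53. Efna1 alone was called lower in the difference and 0 were higher, against 1.73% and 2.51% of all genes. With replicate pairs as a block 4 were lower and 2 higher. Of 34 growth factor receptors, 9 were called higher and 0 lower at 2 h (18 and 0 under the block), against 9.11% and 4.59% of all genes. At 24 h 11 were called higher and 4 lower (14 and 8 under the block), against 18.1% and 15.1%. In the difference 3 were lower and 2 higher (11 and 4 under the block), against 1.73% and 2.51%. Ddr2, a collagen receptor kinase, read 173, 200.2 and 297 CPM with DMSO at 2 h, 548, 307 and 318 with JNJ at 2 h, 335, 187 and 230.3 with DMSO at 24 h and 144, 89.3 and 91.3 with JNJ at 24 h. JNJ 2 h replicate 1 was the highest library, and the JNJ libraries of 24 h were the lowest. For Ddr2 the difference between the log2 effects was -2.02 (SE 0.43, adjusted p = 0.0234). At 2 h Ddr2 had an effect of 0.81 (adjusted p = 0.0977, 0.0484 with the replicate pairs of each time as a block) and at 24 h of -1.21 (adjusted p = 0.00898). Ror2, a receptor kinase for Wnt5a, stood at 49.7, 42.9 and 52.7 CPM in the DMSO libraries and 84.3, 64.3 and 57 in the JNJ libraries of 2 h, and at 56.9, 52.5 and 76.9 and 31.7, 31.5 and 43.8 in those of 24 h. Its JNJ libraries exceeded the vehicle at 2 h and were below it at 24 h. Ror2 effects on the log2 scale were 0.50 (adjusted p = 0.132, 0.0333 with the replicate pairs of each time as a block) at 2 h and -0.80 (adjusted p = 0.0109) at 24 h. Their difference for Ror2 was -1.30 (SE 0.30, adjusted p = 0.0303). Ddr2 lost the call (adjusted p up to 0.0762) when DMSO 2 h replicates 1 and 2, DMSO 24 h replicate 1 and JNJ 24 h replicates 2 and 3 were each left out. Ror2 kept its call on leaving out DMSO 2 h replicate 3, JNJ 2 h replicates 2 and 3, DMSO 24 h replicate 2 and JNJ 24 h replicate 3, and lost it on leaving out each of the other 7 libraries (adjusted p up to 0.09). Alk lost the call in 8 of the 12 fits with 1 library left out, Met in 9 and Acvr1 in 11. The third lower call was Acvr1 (-1.41), and the higher calls were Alk (2.04) and Met (2.43). The list's count of lower calls was 11 without JNJ 2 h replicate 3, 2 without DMSO 2 h replicate 3, JNJ 2 h replicate 2 or DMSO 24 h replicate 2, 1 without JNJ 2 h replicate 1, DMSO 24 h replicate 3, JNJ 24 h replicate 1 or JNJ 24 h replicate 3, and 0 without any of the rest.

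In the hedgehog and granule lineage lists 1 of 20, 1 of 27 and 0 of 40 genes had a called difference, against 4.24% of all genes. Gli1, the transcription factor and target that reads out hedgehog signalling, was counted at 113, 115 and 164 CPM (DMSO, 2 h), 154, 95 and 139.6 (JNJ, 2 h), 194, 173 and 132 (DMSO, 24 h) and 119.6, 94.8 and 73.8 (JNJ, 24 h). With JNJ it was lower at 24 h and overlapped the vehicle at 2 h. Gli1 had log2 effects of JNJ of -0.01 (adjusted p = 0.981) at 2 h and -0.79 (adjusted p = 0.0236) at 24 h. For Gli1 the 24 h effect minus the 2 h effect was -0.78 (SE 0.34, adjusted p = 0.203, 0.0384 with the replicate pairs of each time as a block). Hhip, a hedgehog-binding antagonist and target, read 90.5, 59.4 and 45.3 CPM with DMSO at 2 h, 109, 85.1 and 64.1 with JNJ at 2 h, 65.3, 70.9 and 40.6 with DMSO at 24 h and 29.7, 24.1 and 20.9 with JNJ at 24 h. The JNJ libraries of 24 h were the lowest. For Hhip the difference between the log2 effects was -1.64 (SE 0.41, adjusted p = 0.0406). At 2 h Hhip had an effect of 0.40 (adjusted p = 0.378, 0.0481 with the replicate pairs of each time as a block) and at 24 h of -1.24 (adjusted p = 0.00591). Smo, the transducer that hedgehog releases from inhibition by Patched, stood at 281, 286 and 253 CPM in the DMSO libraries and 234, 312 and 229 in the JNJ libraries of 2 h, and at 232, 254 and 288 and 123, 92 and 90.7 in those of 24 h. It was lowered only at 24 h. Smo effects on the log2 scale were -0.08 (adjusted p = 0.797) at 2 h and -1.34 (adjusted p = 0.000235) at 24 h. Their difference for Smo was -1.26 (SE 0.25, adjusted p = 0.0191). Hhip kept its call on leaving out DMSO 2 h replicate 1, JNJ 2 h replicate 3 and DMSO 24 h replicate 3, and lost it on leaving out each of the other 9 libraries (adjusted p up to 0.11). Smo lost the call (adjusted p up to 0.0609) when DMSO 2 h replicate 2, DMSO 24 h replicate 3 and JNJ 24 h replicates 2 and 3 were each left out. Ptch1 had a difference of -0.11 (SE 0.30, adjusted p = 0.864). Of 20 hedgehog targets tested Hhip alone was called in the difference (1 higher and 7 lower under the block). At 24 h 8 of the 20 were called lower and 2 higher, against 15.1% and 18.1% of all genes. At 2 h 1 was lower and 2 were higher, against 4.59% and 9.11%. Of 27 signal transduction genes Smo alone was called in the difference (1 higher and 3 lower under the block). At 24 h 3 of the 27 were called each way, and at 2 h 2 higher and 0 lower.

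Atoh1, the proneural factor of granule precursors, was counted at 518, 485 and 369 CPM (DMSO, 2 h), 211, 164 and 186 (JNJ, 2 h), 536, 497 and 392 (DMSO, 24 h) and 276, 209 and 189.9 (JNJ, 24 h). The drug lowered it at both 2 h and 24 h, with no overlap between drug and vehicle. Atoh1 had log2 effects of JNJ of -1.29 (adjusted p = 0.0017) at 2 h and -1.08 (adjusted p = 0.00161) at 24 h. For Atoh1 the 24 h effect minus the 2 h effect was 0.21 (SE 0.28, adjusted p = 0.706). Ccnd1, cyclin D1, read 1163, 763 and 809 CPM with DMSO at 2 h, 381, 364 and 483 with JNJ at 2 h, 1021, 1115 and 1158 with DMSO at 24 h and 465, 273 and 493 with JNJ at 24 h. It also was lower with JNJ at both times. For Ccnd1 the difference between the log2 effects was -0.27 (SE 0.33, adjusted p = 0.688). At 2 h Ccnd1 had an effect of -1.15 (adjusted p = 0.00735) and at 24 h of -1.42 (adjusted p = 0.000908). For Mycn, a MYC family factor of the same pathway, the difference was -0.18 (SE 0.59, adjusted p = 0.895), from -0.86 (adjusted p = 0.196, 0.0102 with the replicate pairs of each time as a block) at 2 h and -1.04 (adjusted p = 0.0761, 0.00187 with the replicate pairs of each time as a block) at 24 h. Of 40 granule lineage factors tested, 7 were called lower at 2 h (14 under the block), against 4.59% of all genes. At 24 h 10 were lower, against 15.1%. In the difference 0 were called by edgeR, DESeq2 and limma-voom, and 1 had an unadjusted p under 0.05. The block of replicate pairs called 1 higher. The median effects of the list were -0.47 at 2 h and -0.31 at 24 h.

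Cdkn1a, the cyclin-dependent kinase inhibitor p21, stood at 69.8, 92.6 and 105 CPM in the DMSO libraries and 169, 143 and 282 in the JNJ libraries of 2 h, and at 105, 59.9 and 99.3 and 257, 209 and 454 in those of 24 h. It was above the vehicle with JNJ at both times. Cdkn1a effects on the log2 scale were 1.15 (adjusted p = 0.0353) at 2 h and 1.80 (adjusted p = 0.00159) at 24 h. Their difference for Cdkn1a was 0.65 (SE 0.46, adjusted p = 0.444). H1f0, a replacement linker histone of non-dividing cells, was counted at 510.2, 527 and 318 CPM (DMSO, 2 h), 679, 890.1 and 544 (JNJ, 2 h), 548, 560.2 and 461 (DMSO, 24 h) and 1273, 1572 and 1061 (JNJ, 24 h). JNJ libraries were above the vehicle at each time, more so at 24 h. H1f0 had log2 effects of JNJ of 0.64 (adjusted p = 0.0971, 0.00702 with the replicate pairs of each time as a block) at 2 h and 1.32 (adjusted p = 0.00152) at 24 h. For H1f0 the 24 h effect minus the 2 h effect was 0.67 (SE 0.34, adjusted p = 0.266, 0.0366 with the replicate pairs of each time as a block). For genes of the drug's own targets the difference was 0.48 (SE 0.24, adjusted p = 0.277) for Hdac1 and 0.25 (SE 0.23, adjusted p = 0.556) for Hdac2. Of the 18 deacetylase genes tested, Sirt2 alone was called in the difference, higher (1.41), against 2.51% of all genes, and 2 were higher under the block. Sirt2 read 34, 38.5 and 35.4 CPM with DMSO at 2 h, 49.9, 38.9 and 37.3 with JNJ at 2 h, 38.2, 38.7 and 38.2 with DMSO at 24 h and 107, 113 and 138 with JNJ at 24 h. No other library reached those of JNJ at 24 h. H2afy2, the histone variant macroH2A2, stood at 74, 78.1 and 67.7 CPM in the DMSO libraries and 45.7, 57.2 and 53.4 in the JNJ libraries of 2 h, and at 69.5, 66.3 and 68.4 and 15.8, 15.3 and 10.8 in those of 24 h. It was the histone gene called in the difference (-1.79), 1 of 18 in its list against 1.73% of all genes called lower. The block called 2 higher and 3 lower in that list. Its JNJ libraries lay below the vehicle at both times, by less at 2 h (adjusted p = 0.072, 0.0331 with the replicate pairs of each time as a block). Sirt2 and H2afy2 kept the called difference whichever of the 12 libraries was left out.

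Stress genes of the ATF4 and unfolded protein response had medians of opposite sign. Of 34 tested, 9 were called higher and 0 lower at 2 h, against 9.11% and 4.59% of all genes. At 24 h 5 were higher and 9 lower, against 18.1% and 15.1%. Their median was 0.34 at 2 h and -0.38 at 24 h, with a median difference of -0.82 and 29 of 34 estimates below 0. In the difference itself 1 was lower, Chac1, and 1 higher, Cebpb (1.71), against 1.73% and 2.51% of all genes. At 10 genes an unadjusted p under 0.05 was in the lower direction, and the block of replicate pairs called 8 lower. The median difference was -0.64 without DMSO 24 h replicate 1, the library with high Chac1, and -0.54 without DMSO 2 h replicate 1. Cebpb kept its call on leaving out DMSO 2 h replicate 1, JNJ 2 h replicate 3 and JNJ 24 h replicate 1, and lost it on leaving out each of the other 9 libraries (adjusted p up to 0.118). Of 47 ribosome biogenesis genes, 24 were called lower at 24 h (35 under the block), against 15.1% of all genes. At 2 h 3 were lower (18 under the block), against 4.59%. In the difference 0 were called by edgeR and limma-voom, and 8 had an unadjusted p under 0.05 in the lower direction. DESeq2 called 3 lower, and the block called 12 lower and 1 higher.

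Of 21 tested MHC class I presentation genes, 13 were called higher and 3 lower at 24 h, against 18.1% and 15.1% of all genes. At 2 h 4 were higher and 0 lower, against 9.11% and 4.59%. The medians were 1.41 at 24 h and 0.67 at 2 h, over tested members, which can have passed the filter through JNJ at 24 h alone. The difference was called at 0 of them by edgeR, 6 had an unadjusted p under 0.05, all higher, DESeq2 called 4, limma-voom 1 and the block of replicate pairs 5. H2-Ab1, a chain of MHC class II, was counted at 0.0285, 0.0544 and 0.0863 CPM (DMSO, 2 h), 0.252, 0.0731 and 0.144 (JNJ, 2 h), 0.0576, 0.0518 and 0 (DMSO, 24 h) and 9.46, 6.82 and 15.5 (JNJ, 24 h). Its vehicle libraries held at most about 3 counts each, so no fold is given. It passed the filter on low counts through the JNJ libraries of 24 h, where it is high, so its call in the difference is no support. Of 39 interferon response genes, 1 was called higher and 1 lower in the difference, against 2.51% and 1.73% of all genes. The higher one was Usp18, an interferon-induced protease (3.3), and the lower one Adar, an RNA editing enzyme (-1.03). The block of replicate pairs called 5 higher and 4 lower. Usp18 lost the call (adjusted p up to 0.0662) when DMSO 2 h replicate 2, DMSO 24 h replicate 1 and JNJ 24 h replicates 2 and 3 were each left out. Adar lost the call (adjusted p up to 0.0597) when DMSO 2 h replicate 2, DMSO 24 h replicates 1 and 3 and JNJ 24 h replicates 2 and 3 were each left out.

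Of 14 tested glial markers, 2 were called lower in the difference and 0 higher, against 1.73% and 2.51% of all genes. Under the block 4 were lower and 1 higher, and 4 of the 14 estimates lay above 0. At 24 h 5 were called lower and 2 higher, against 15.1% and 18.1% of all genes. At 2 h 1 was called each way, against 4.59% and 9.11%. Slc1a2, a glutamate transporter of astrocytes, read 381, 230.3 and 302 CPM with DMSO at 2 h, 404, 336 and 299 with JNJ at 2 h, 400.2, 381 and 471 with DMSO at 24 h and 169, 113 and 165 with JNJ at 24 h. The JNJ libraries of 24 h were the lowest. Slc1a3, its relative in glia, stood at 221, 215 and 246 CPM in the DMSO libraries and 458, 344 and 248 in the JNJ libraries of 2 h, and at 224, 208 and 258 and 135, 99.1 and 115 in those of 24 h. The JNJ libraries of 2 h lay at or above the vehicle and those of 24 h below all others. Both were called lower in the difference (-1.67 and -1.61). The summed astrocyte markers ran from 244 to 389 CPM with DMSO at 2 h, 308 to 413 with JNJ at 2 h, 390.0 to 481 with DMSO at 24 h and 120 to 174 with JNJ at 24 h, nearly all of it Slc1a2, while the defining markers Aqp4, Aldh1l1 and Gja1 were near 0. Summed fibroblast markers stood at 11.6 to 28.0 CPM with JNJ at 24 h, from Col1a1 with Col1a2 and Dcn near 0, and at 1.73 to 4.76 with DMSO at 2 h, 2.51 to 8.05 with JNJ at 2 h and 2.57 to 4.84 with DMSO at 24 h. Summed epithelial markers stood at 1.60 to 4.02 CPM with JNJ at 24 h, above the 0.171 to 0.662 with DMSO at 2 h, 0.196 to 0.293 with JNJ at 2 h and 0.230 to 0.339 with DMSO at 24 h. The part of other cell types in these results was not tested. Slc1a2 and Slc1a3 kept the called difference whichever of the 12 libraries was left out.

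**Figure D5:**
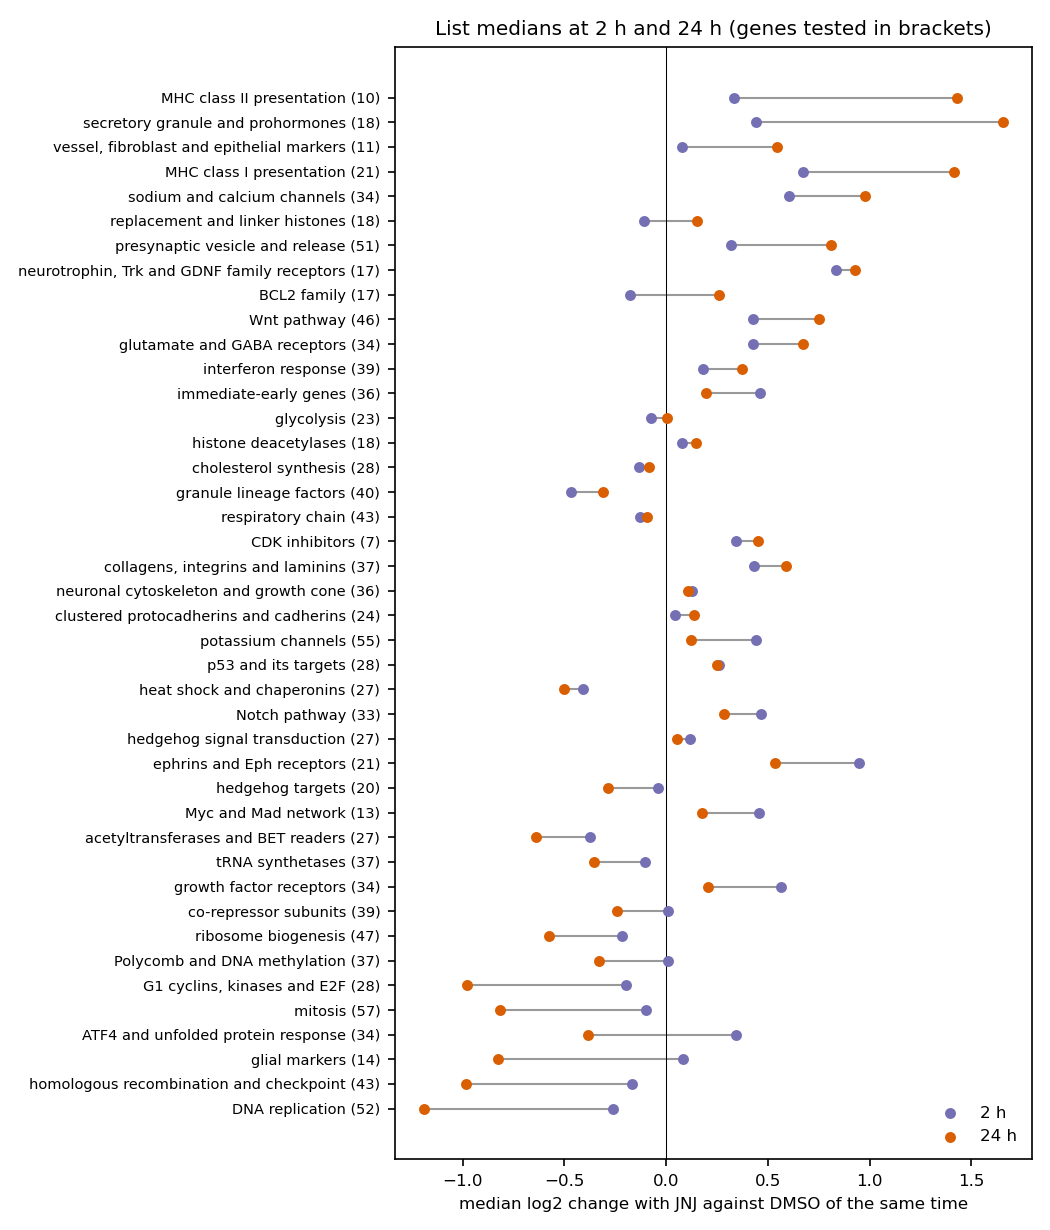
Median log2 change with JNJ against DMSO of the same time for each gene list (genes tested in brackets), at 2 h (purple) and 24 h (orange), ordered by the median difference. DNA replication moves from -0.26 to -1.19 and secretory granule genes from 0.44 to 1.66, while granule lineage factors have -0.47 and -0.31. Members with few reads can have passed the filter through JNJ at 24 h alone.

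Across lists the plot of list medians orders the lists by their median difference. At the lower end are DNA replication (-1.0), homologous recombination (-0.94), glial markers (-0.93), the ATF4 list (-0.82), mitosis (-0.74) and G1 cyclins (-0.71). For replicates 1, 2 and 3 in turn, homologous recombination had -0.79, -0.71 and -1.37, and G1 cyclins -0.61, -0.49 and -1.03. Both were lowest in replicate 3, as were replication and mitosis. Glial markers had -0.97, -0.34 and -0.93, and the ATF4 list -1.65, -0.25 and -0.55. At the upper end are MHC class II (1.47), secretory granule genes (1.09), markers of vessels, fibroblasts and epithelia (0.97) and MHC class I (0.75). Each median covers tested members only, 10 of 16, 18 of 28, 11 of 17 and 21 of 25 in that order. Members with few reads can have passed the filter through JNJ at 24 h alone, so these upper medians are a description only. Without single libraries the MHC class II median ran from 0.88 to 2.29. Chromatin lists lay between: of 37 Polycomb and DNA methylation genes 0 were called in the difference by edgeR and limma-voom, 7 at an unadjusted p under 0.05, all lower, 1 by DESeq2 and 8 under the block, with a median of -0.43. Of 27 acetyltransferases and BET readers, the histone acetyltransferase Hat1 (-0.95) was called lower (4 lower under the block), against 1.73% of all genes. Upper-quartile scaling changes the sign of the small list medians of heat shock genes (-0.15 to 0.03), p53 targets (-0.11 to 0.06), potassium channels (-0.11 to 0.06) and clustered protocadherins (-0.05 to 0.12), so no direction is given for them. Hat1 kept its call on leaving out JNJ 2 h replicates 1 and 3, and lost it on leaving out each of the other 10 libraries (adjusted p up to 0.0985).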

How the data were processed

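RNA-seq counts of the 12 SMB21 samples treated with DMSO or JNJ were used. The labels' protocols name an RNeasy kit, TruSeq Stranded mRNA libraries and single-end reads, and the submitters' processing notes name STAR 2.5.1b and mm9. The authors deposited raw counts, 1 whole number per gene symbol and library. How reads were assigned by strand, by annotation and when they had several hits is not given in the sources used here, and so close paralogues and genes that overlap or lie antisense to each other are uncertain. The table holds 24047 genes, 4708 of them with no count in the 12 libraries.

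Groups were taken from the labels. In R 4.3.3, edgeR 4.0.16 was used to keep genes by filterByExpr (minimum count 10, minimum total 15; 14467 genes), to scale by TMM (factors 0.883 to 1.15) and to fit group means with the quasi-likelihood test, two-sided, with Benjamini-Hochberg adjustment over all genes. Calls needed an adjusted p under 0.05, and the common biological coefficient of variation was 0.294. Contrasts were JNJ against DMSO at each time, their difference, and DMSO at 24 h against 2 h. Alternatives used RLE, upper-quartile or library-total scaling, no filter or a mean of 5 CPM, DESeq2 1.42.0, limma-voom (limma 3.58.1), all 21 libraries, replicate blocks, single libraries left out and a 2-fold minimum.

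Replicate numbers in the labels were checked for pairing with deviations from group means (log2 of CPM plus 0.5, over 10776 genes averaging 5 CPM or more). DMSO and JNJ libraries of the same number correlated at 0.20, 0.72 and 0.60 at 2 h and 0.63, 0.66 and 0.63 at 24 h. Those of unlike number gave -0.62 to 0.14 at 2 h and -0.39 to -0.19 at 24 h. The numbers were therefore taken to pair the libraries within each time. For replicate 1 at 2 h the pairing is weak, since DMSO replicate 1 gave 0.14 with JNJ replicate 2. Across times the DMSO libraries gave -0.14, 0.41 and 0.54 and the JNJ libraries 0.47, 0.59 and 0.37. As 1 of these 6 lay under 0.1, the numbers were not taken to pair the libraries across both times.

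Genes named are the 4 of largest difference in each response group (averaging 5 CPM or more, at least 10 counts in each group, no placeholder names), the 2 of lowest p in each list with 3 or more calls, and 10 fixed genes. The other genes named were chosen after their values were seen. A few genes that these rules name are not reported here. The contrast, the lists and the rules were chosen with earlier results of these data known. Floors of 3 counts cover counting error only.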

Additional observations from a re-analysis of the deposited data

Results flagged for a closer look

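A called difference between the drug effects is itself a test of whether the effect at 24 h differs from that at 2 h, so every called gene meets that criterion. Only the genes named above that were called in opposite directions at 2 h and 24 h are listed here, each with its log2 difference (24 h effect minus 2 h effect). Sv2a, the synaptic vesicle glycoprotein, had -2.54, the fork remodeller Fancm -1.89, the lipid transfer protein Gltpd1 -1.63 and the centriole factor Stil -1.61. In the other direction the peroxisomal import receptor Pex7 had 1.79 and the centrosomal protein Cep63 1.52. Groups of 3 libraries were not tested for outlying samples.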

How the results depend on the processing

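Counts of called genes moved by over 1.5 times under these settings, and the cause was not tested. Upper-quartile scaling gave 572 higher and 127 lower differences, 508 late rises, 24 transient rises, 88 late falls, 31 transient falls and 1 shrinking fall. Library totals gave 129 lower differences, 27 transient rises, 91 late falls, 22 transient falls, 1 shrinking fall and 7 opposite calls. RLE scaling gave 1 shrinking fall, and no filter gave 1 shrinking rise and 0 shrinking falls. A mean of 5 CPM, which tests fewer genes, gave 231 higher and 156 lower differences, 195 late rises, 36 transient rises, 103 late falls, 1 shrinking fall and 8 opposite calls. DESeq2 gave 817 and 642 differences, 667 late, 62 growing, 169 transient and 14 shrinking rises, 388 late, 31 growing, 53 transient and 7 shrinking falls, and 31 opposite calls. Limma-voom gave 10 growing rises, 0 shrinking rises and 1 shrinking fall. All 21 libraries gave 813 and 909 differences, 656 late, 38 growing, 240 transient and 24 shrinking rises, 531 late, 52 growing, 72 transient and 10 shrinking falls, and 58 opposite calls. The replicate block across both times gave 1142 and 990 differences, 916 late, 104 growing, 245 transient and 27 shrinking rises, 600 late, 50 growing, 74 transient and 11 shrinking falls, and 53 opposite calls. The replicate block within each time, where the numbers were taken to pair the libraries, gave 1238 and 1335 differences. It also gave 965 late, 121 growing, 304 transient and 43 shrinking rises, 791 late, 87 growing, 94 transient and 23 shrinking falls, and 89 opposite calls.

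Leaving out single libraries gave 86 to 467 higher and 59 to 689 lower differences, 77 to 379 genes with a late rise, 3 to 38 growing, 9 to 290 transient and 0 to 30 shrinking rises, 39 to 288 late, 2 to 13 growing, 4 to 31 transient and 0 to 4 shrinking falls, and 3 to 74 opposite calls. A minimum of 2-fold left 349 higher and 224 lower differences.

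Of the genes named by rule, 504 values under other settings kept their side of the threshold, 21 lost the call and 3 gained it. No gene called in either fit changed direction, and a change of sign without a call was counted as kept. Without single libraries 511 values kept their side and 125 lost the call. Apcdd1, Per2, Rell1 and Chac1 lost it under upper-quartile scaling, library totals, a mean of 5 CPM and limma-voom, Hhip under all of these but limma-voom, Efna1 under limma-voom and Specc1l without a filter. Gli1 gained it under the block within each time and H1f0 under both blocks. With 3 libraries a group, an adjusted p above 0.05 does not show equal effects.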

Other observations

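Both lists here were chosen after the values of these data were seen, so they support nothing by themselves. Of 21 tested genes of the circadian clock, 3 were called lower in the difference, Per1, Per2 and Cry2 (-1.46), and 0 higher (2 higher and 5 lower with replicate pairs as a block). Of all genes 1.73% were called lower and 2.51% higher in the difference. At 2 h 9 of the 21 were called higher and 1 lower, against 9.11% and 4.59% of all genes. At 24 h 5 were higher and 2 lower, against 18.1% and 15.1%. The median log2 effect was 0.44 at 2 h and 0.30 at 24 h. Ciart, a clock-controlled repressor, read 4.5, 13.9 and 11.1 CPM with DMSO at 2 h, 29.4, 32.5 and 37.8 with JNJ at 2 h, 7.89, 7.27 and 4.26 with DMSO at 24 h and 7.57, 5.6 and 5.4 with JNJ at 24 h. Its effects were 1.76 at 2 h and -0.06 at 24 h, with a difference of -1.82 that was not called (adjusted p = 0.0601). The number of lower calls was between 1 and 3 without single libraries, and 1 without DMSO 2 h replicates 1 or 2, DMSO 24 h replicate 1 or any library of JNJ at 24 h.

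Of 27 tested genes that break down branched-chain amino acids and propionate, 6 were called higher in the difference and 1 lower (9 and 1 under the block). Of all genes 2.51% were called higher and 1.73% lower. The higher ones were Acsf3, a malonyl-CoA synthetase of mitochondria (2.81), both subunits of the branched-chain keto acid decarboxylase, Bckdha (1.09) and Bckdhb (1.46), Aldh6a1 (1.39), Mcee (1.38) and Pcca (1.35). The lower one was Bcat1, the cytosolic transaminase that starts the pathway (-1.82). Acsf3 read 15.7, 13.4 and 18.8 CPM with DMSO at 2 h, 21.7, 12 and 15.5 with JNJ at 2 h, 44.2, 22.3 and 30.1 with DMSO at 24 h and 342, 117 and 238 with JNJ at 24 h. The JNJ libraries of 24 h lay above all others. Bcat1 read 186, 339 and 271 CPM with DMSO at 2 h, 114, 273 and 266 with JNJ at 2 h, 229.9, 179 and 182 with DMSO at 24 h and 47.4, 53.6 and 36.3 with JNJ at 24 h. The JNJ libraries of 24 h were the lowest. At 2 h 1 gene of the list was called higher and 2 lower, against 9.11% and 4.59% of all genes. At 24 h 9 were higher and 4 lower, against 18.1% and 15.1%. The count of higher calls was 1 without DMSO 24 h replicate 1 or JNJ 24 h replicate 3, whereas it was 8 on omitting JNJ 2 h replicate 3, and the Bcat1 call held only without JNJ 2 h replicates 1 or 3.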
